A study of Mus musculus with 8 samples.

Results

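Adipokines and other factors that fat cells secrete were followed through the cell clusters of white preadipocytes on their way to brown-like adipocytes. The 7 genes chosen by name were Adipoq, Lep, Retn, Cfd, Rbp4, Apoe and Angptl4, out of 3903 gene symbols in the authors' table of cluster markers. Of these, 5 had entries. Cfd and Lep had none in the table as used here, which gives no level for either.

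The cells came from 8 single-cell cultures in 4 groups of 2. Preadipocytes of the inguinal white fat of C57BL/6 mice were either wild type (WT) or Hmgn1-/- and Hmgn2-/- (DKO), a constitutive loss of both nucleosome-binding HMGN proteins. They were collected at day 0, as undifferentiated preadipocytes, or at day 6. The cultures of day 6 had been induced with insulin, dexamethasone, IBMX, triiodothyronine and rosiglitazone, an activator of the nuclear receptor PPARγ, and then kept in insulin and triiodothyronine. The study asked whether loss of HMGN speeds browning, in which white fat takes on heat-producing properties. The table sets each of 12 clusters, numbered 0 to 11, against the remaining cells, with the cells of the 8 cultures pooled. No value has a replicate or an SD, and neither the genotypes nor the days can be compared from it. The numbers of cells and of reads are unknown from it, so no counting interval is given.

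Mature fat cells are endocrine cells. Adiponectin (Adipoq) raises insulin sensitivity, leptin (Lep) reports fat stores to the brain, and resistin (Retn) opposes insulin in mice. Adipsin (Cfd) is a complement protease, and RBP4 carries retinol in the blood. APOE carries lipid and is also made by many cells other than fat cells, macrophages among them. ANGPTL4 inhibits lipoprotein lipase, and its gene and Adipoq are known targets of PPARγ.

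The promoters of 4 members are shown first, since the log2 fold changes of Adipoq, Retn and Rbp4 had the same sign in every cluster they shared, whether or not they passed, and those of Apoe did not. Each is the 250 bases before a RefSeq transcription start (GRCm38.p6, the build of mm10), on the strand of the gene. Where RefSeq gives several starts, the one nearest to a GENCODE transcript start was taken. The window was chr16:23146286-23146535 on the plus strand for Adipoq, chr8:3655520-3655769 on the plus strand for Retn, chr19:38124812-38125061 on the minus strand for Rbp4 and chr7:19699189-19699438 on the minus strand for Apoe. Capitals mark a match on either strand to one of 4 motifs. TATAAA stands for the TATA box. GGGCGG stands for the GC box. CCAAT stands for the box of that name. The C/EBP core was written as TTGCNNAA.
Adipoq: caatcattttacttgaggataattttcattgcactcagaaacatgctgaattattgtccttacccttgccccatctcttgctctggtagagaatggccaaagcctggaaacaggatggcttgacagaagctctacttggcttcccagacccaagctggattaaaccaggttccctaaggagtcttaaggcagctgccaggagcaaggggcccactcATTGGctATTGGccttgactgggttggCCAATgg
Retn: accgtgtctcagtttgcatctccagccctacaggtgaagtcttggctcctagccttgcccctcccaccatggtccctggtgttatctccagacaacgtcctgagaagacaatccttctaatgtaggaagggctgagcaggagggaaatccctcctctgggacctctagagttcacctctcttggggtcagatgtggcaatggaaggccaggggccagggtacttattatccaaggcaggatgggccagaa
Rbp4: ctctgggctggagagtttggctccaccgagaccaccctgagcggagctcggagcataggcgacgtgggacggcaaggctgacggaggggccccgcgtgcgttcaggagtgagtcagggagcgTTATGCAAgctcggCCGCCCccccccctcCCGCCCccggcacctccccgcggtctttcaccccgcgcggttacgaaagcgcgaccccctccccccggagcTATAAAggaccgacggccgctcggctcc
Apoe: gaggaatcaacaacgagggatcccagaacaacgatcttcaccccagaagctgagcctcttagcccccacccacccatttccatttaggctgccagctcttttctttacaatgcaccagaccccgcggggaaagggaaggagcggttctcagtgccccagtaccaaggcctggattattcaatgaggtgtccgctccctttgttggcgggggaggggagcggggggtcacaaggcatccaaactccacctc
Adipoq had 3 CCAAT boxes, whose first bases lay at -34, -27 and -7 from the start, and 33.9% of 32841 promoter windows of this length held at least 1. Rbp4 had a TATA box at -28, which 12.4% of the windows held, GC boxes at -114 and -99, which 32.7% held, and a C/EBP core at -128, which 9.57% held. Retn and Apoe had no match to these letters. The nuclear receptor half-site AGGTCA, found in 14.0% of all windows, matched none of the 4. GC content was 48.8% for Adipoq, 54.8% for Retn, 57.2% for Apoe and 70.8% for Rbp4, against a median of 52.4%. The table of promoters used here has no entry for Angptl4.

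Cluster 11 was the smallest, with 1.5% of all cells. Of the 5 members with entries, 4 were listed for cluster 11 and all 4 were higher there. They passed an adjusted p below 0.05 (MAST, over single cells) with a log2 fold change of at least 0.25, as did 22.3% of all gene symbols. The clusters were drawn from the same genes of the same cells, so this comparison is a description and no test. Cluster 11 also had higher values for all 11 of 11 adipocyte markers, with Fabp4, a fatty acid carrier, at a log2 fold change of 3.56 and Plin1, a lipid droplet coat protein, at 2.58. The median over these markers was 2.11, against -0.30 over all entries of the cluster.

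Rbp4 led in cluster 11 with a log2 fold change of 3.15, the fifth largest (rank 5) of 999 higher entries, with detection in 99.6% of its cells and in 38.6% elsewhere. Adipoq followed with 2.37 (rank 16), detected in 92.1% against 17.6%. Retn stood at 1.45 (rank 79), detected in 77.5% against 10.9%. Angptl4 was detected as widely, in 94.1% against 32.6%, but its log2 fold change was 0.81 and its rank 265. The order by fold change therefore did not follow the order by detection. Seurat adds 1 to both means, which shrinks the fold changes of genes at low levels. These sizes and ranks are therefore not fully comparable between genes.

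**Figure D1:**
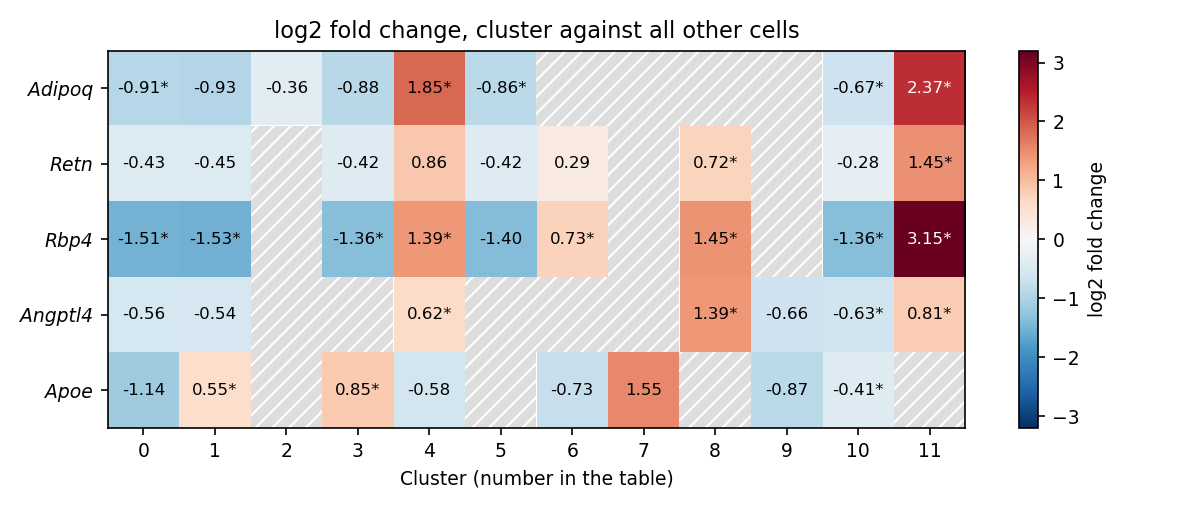
Log2 fold change of each member (rows) in each of the 12 clusters (columns) against all other cells. Colour and printed number give the authors' value, an asterisk marks an adjusted p below 0.05, and hatched cells have no entry. Adipoq, Retn and Rbp4 are red in clusters 4 and 11 and blue in clusters 0, 1, 3, 5 and 10, while Apoe is red in clusters 1, 3 and 7.

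Adipoq lies on chromosome 16 (23146536 to 23158028, plus strand, mm10). The authors listed it for 8 clusters. Detection was 92.1% in cluster 11, 40.5% in 4, 40.1% in 2, 2.7% in 5, 2.2% in 0, 1.9% in 3, 1.2% in 1 and 1.0% in 10. The values fall into 3 levels, with cluster 11 alone at the top and clusters 2 and 4 far above the remaining 5. Over all cells Adipoq was detected in 18.7%, solved with the cluster shares, and the 8 clusters gave this value within 0.039 percentage points. Clusters 6, 7, 8 and 9 had no entry. Together they must hold the rest, and their pooled detection came to 29.6%. Their pooled mean was 1.01 times that of all cells, each mean with the 1 that Seurat adds.

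Clusters 2 and 4 differed in Adipoq level although they were alike in its detection. The log2 fold change was -0.36 in cluster 2 (adjusted p of 1) and 1.85 in cluster 4 (1.81e-11). Fold changes were put on 1 scale as the cluster mean over that of all cells, each with the 1 that Seurat adds. This ratio came to 0.80 for cluster 2, 2.88 for cluster 4 and 4.88 for cluster 11. A mean cannot be below 0, and cluster 1 had the lowest listed ratio, 0.56. The mean over all cells was therefore at least 0.774 per 10000 transcripts of a cell. By the same bound cluster 2 had a mean of at least 0.424, cluster 4 of at least 4.11 and cluster 11 of at least 7.65. The mean of cluster 4 was 3.59 to 9.70 times that of cluster 2, whatever the true mean over all cells. The mean of cluster 11 was 1.69 to 1.86 times that of cluster 4. Clusters 2 and 4 also differed in detection over all their listed entries. The median entry of cluster 4 had a detection of 10.8%, with 63.0% elsewhere. That of cluster 2 had 65.9%, with 66.4% elsewhere. Only cluster 10 had a lower median than cluster 4, at 8.1%. The part of this in the Adipoq value was not tested.

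**Figure D2:**
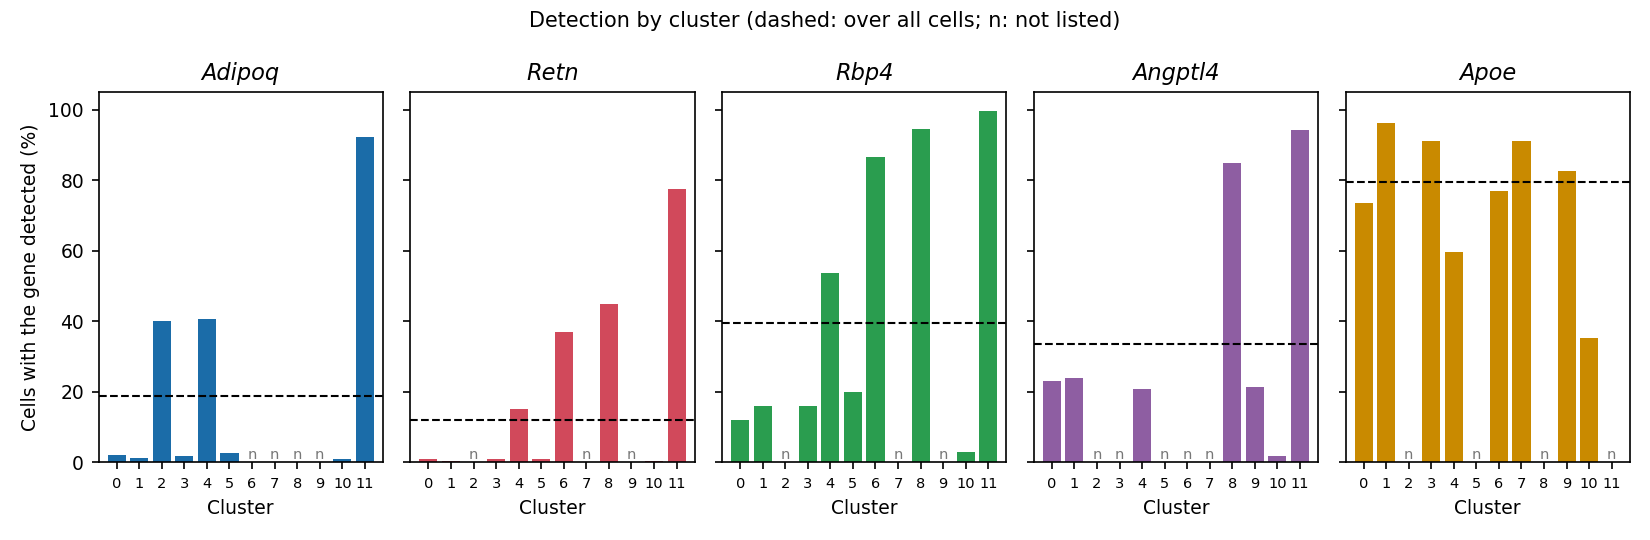
Percent of cells with each member detected, by cluster (bars), with the value over all cells as a dashed line; n marks a cluster without an entry. Among the listed clusters, cluster 11 is the highest bar for Adipoq (92.1%), Retn (77.5%), Rbp4 (99.6%) and Angptl4 (94.1%), and cluster 1 for Apoe (96.1%).

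Retn lies on chromosome 8 (3655770 to 3660110, plus strand) and was listed for 9 clusters. Its detection reached 77.5% in cluster 11, 44.8% in 8, 37.0% in 6 and 15.0% in 4. In clusters 0, 1, 3, 5 and 10 this was 0.5% to 1.0%. Its log2 fold change passed in cluster 11 (1.45) and in cluster 8 (0.72, adjusted p of 3.59e-05). The values of 0.86 in cluster 4 and 0.29 in cluster 6 came with an adjusted p of 1. A larger share of cells had Retn in cluster 8 than in cluster 4, while the log2 fold change was the smaller. Over all cells Retn was detected in 11.9%, and the pooled detection in clusters 2, 7 and 9, which had no entry, was 14.2%.

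Rbp4 lies on chromosome 19 (38116629 to 38125281, minus strand) and was listed for 9 clusters. Detection was 99.6% in cluster 11, 94.6% in 8, 86.7% in 6 and 53.7% in 4. It was 12% to 20% in clusters 0, 1, 3 and 5 and 2.8% in cluster 10. All 4 clusters of the upper range passed as higher, with log2 fold changes of 3.15 for 11, 1.45 for 8, 1.39 for 4 and 0.73 for 6. In cluster 8 its detection exceeded that in all other cells by 58.5 percentage points, the second largest (rank 2) of 1126 entries. On the scale of all cells, the mean in cluster 11 was 3.21 to 3.62 times that in cluster 8 and 5.02 to 6.30 times that in cluster 6. Lower values that passed were those of cluster 0 (-1.51), cluster 1 (-1.53), cluster 3 (-1.36) and cluster 10 (-1.36), and in cluster 5 (-1.40) the adjusted p was 0.226. Rbp4 was detected in 39.5% of all cells and in 54.1% of the pooled cells of clusters 2, 7 and 9.

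Cluster 6 also held the genes of dividing cells, with 6 of 6 proliferation markers higher and Mki67 at 1.76. Rbp4 was the only member that passed as higher in cluster 6, where 12.9% of all symbols did. In clusters 5 and 9, where 5 and 4 proliferation markers were higher, no member passed as higher, against 11.7% and 7.84% of all symbols. Adipoq was lower in cluster 5 (-0.86), as 1.56% of all symbols were.

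Angptl4 lies on chromosome 17 (33773750 to 33781830, minus strand) and was listed for 7 clusters. Its detection was 94.1% in cluster 11 and 85.0% in cluster 8, 20.9% to 23.8% in clusters 0, 1, 4 and 9, and 1.8% in cluster 10. It was the only member with its largest listed log2 fold change outside cluster 11 and at the same time higher within it. That value was 1.39 in cluster 8 (rank 10 of 369 higher entries), against 0.81 in cluster 11 and 0.62 in cluster 4. The mean of cluster 8 was 1.38 to 1.60 times that of cluster 11. In cluster 4 the mean was higher although fewer cells had the gene, 20.9% against 34.9% elsewhere. Cluster 10 was lower (-0.63), and clusters 0, 1 and 9 had values of -0.56, -0.54 and -0.66 with an adjusted p of 1. Angptl4 was detected in 33.5% of all cells and in 37.7% of the pooled cells of clusters 2, 3, 5, 6 and 7.

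Counted over the members, cluster 8 had 3 higher (Retn, Rbp4 and Angptl4), where 4.18% of all symbols were higher. Cluster 4 had 3 higher (Adipoq, Rbp4 and Angptl4), where 12.1% were. Cluster 10 had 4 lower (Adipoq, Rbp4, Apoe and Angptl4), where 11.8% were. There the median entry had a detection of 8.1%, with 62.4% elsewhere, and the part of this in the lower values was not tested. Clusters 0 and 1 had 2 and 1 lower (0.974% and 1.15% of all symbols) and cluster 3 had 1 lower (0.769%). In cluster 2 the count was 0 in both directions, where 3.72% of all symbols were higher and 5.51% lower, and in cluster 7 it was likewise 0, where 2.46% were higher and 0.999% lower. Cluster 9 also had 0 lower (0.538%). No member was higher in cluster 0 (5.46%) or cluster 10 (5.82%), or lower in cluster 4 (37.7%), cluster 6 (8.22%) or cluster 8 (6.61%).

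Apoe lies on chromosome 7 (19696109 to 19699188, minus strand) and differed from the other members in its order of clusters. Its detection over all cells, 79.6%, was the widest of the members. The log2 fold change was 1.55 in cluster 7, the sixth largest (rank 6) of 378 higher entries, but with an adjusted p of 1. It passed as higher in cluster 3 (0.85) and cluster 1 (0.55), where 1.56% and 4.38% of all symbols did. Detection was 91.0% in cluster 7, 91.2% in cluster 3 and 96.1% in cluster 1. The lowest mean among the 8 listed clusters was in cluster 0, at -1.14 with an adjusted p of 0.0714 and detection in 73.6% of the cells, and clusters 4, 6 and 9 stood at -0.58, -0.73 and -0.87, each with an adjusted p of 1 as well. Only cluster 10 passed as lower (-0.41, detected in 35.3%). In cluster 9 the gene was detected in slightly more cells than elsewhere, 82.7% against 79.4%, at the lower mean.

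Apoe had no entry in cluster 11, nor in clusters 2, 5 and 8. A gene detected in over 10.1% of all cells passes the detection minimum of the table in every cluster, so Apoe there missed the fold change or the p minimum. The pooled detection of these 4 clusters was 79.2%. Their pooled mean was 0.78 times that of all cells, each mean with the 1 that Seurat adds. Macrophages are another source of APOE. Of 11 macrophage markers, 0 had an entry in any cluster, nor had any of 4 endothelial and 4 glial ones. The authors had removed immune, endothelial and glial cells before clustering. A gene without an entry can still be present at a low level.

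**Figure D3:**
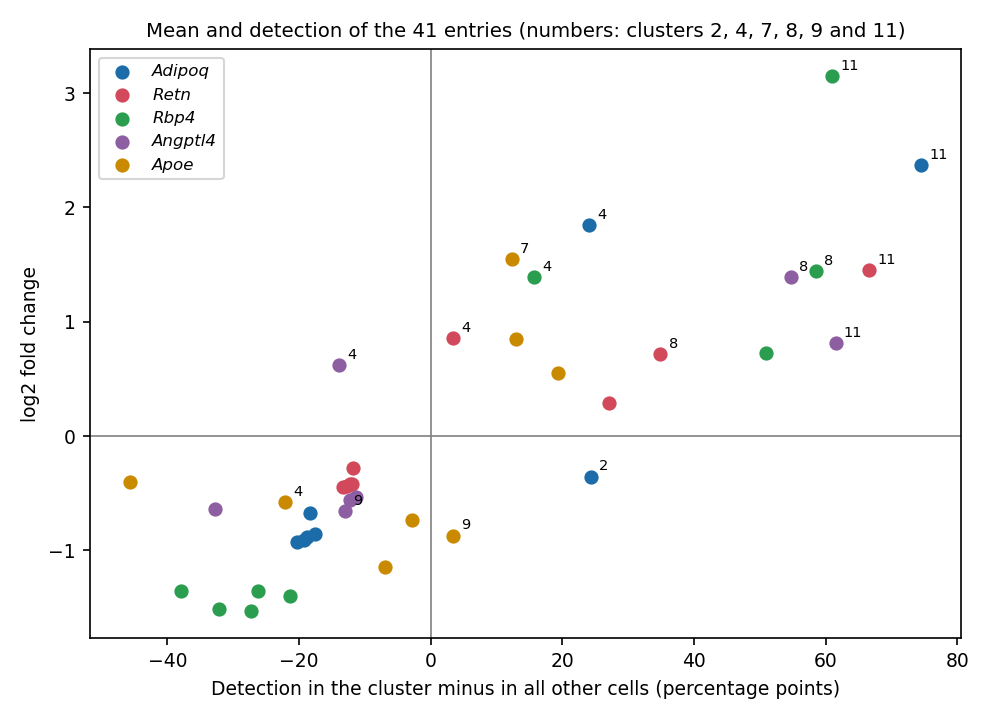
Each of the 41 entries of the members, with the difference of detection between the cluster and all other cells in percentage points (x axis) against the log2 fold change (y axis); the numbers are those of clusters 2, 4, 7, 8, 9 and 11. Adipoq in cluster 2, Angptl4 in cluster 4 and Apoe in cluster 9 lie in the quadrants where the 2 measures have opposite signs.

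Of the 41 entries of the members, 13 passed as higher, 9 passed as lower and 19 had an adjusted p of at least 0.05. In 3 of the 41 the mean and the detection moved in opposite directions. These were Adipoq in cluster 2 (24.3 percentage points more detection at a lower mean), Angptl4 in cluster 4 (14.0 percentage points less at a higher mean) and Apoe in cluster 9 (3.3 points more at a lower mean). Of all 13337 entries, 2408 did so.

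The cells with an adipokine detected lay mostly outside the cluster of its highest listed mean. For Adipoq, Retn and Rbp4 that was cluster 11, which held 7.38%, 9.75% and 3.78% of the cells with the gene detected. For Angptl4 it was cluster 8, which held 15.0%, while cluster 11 held 4.21%. Clusters 11 and 8 made up 1.5% and 5.92% of all cells, which limits the share that each could hold. Most Adipoq cells were outside cluster 11, with 25.9% in cluster 2, 20.7% in cluster 4 and 40.8% in clusters 6 to 9 together. These made up 12.1%, 9.59% and 25.8% of all cells. For Retn, cluster 6 held 23.1%, cluster 8 held 22.2% and cluster 4 held 12.1%. Clusters 6, 8 and 4 held 16.4%, 14.2% and 13.0% of the cells with Rbp4, and made up 7.46%, 5.92% and 9.59% of all cells. Clusters 0, 1, 3 and 5, which made up 47.7% of all cells, held 4.92% of the cells with Adipoq and 3.41% of those with Retn, but 18.8% of those with Rbp4. For Apoe, clusters 1, 0 and 3 held the largest shares among the listed clusters (17.1%, 13.3% and 11.9%), and the 4 without an entry held 28.3% together. Of all cells, clusters 1, 0 and 3 made up 14.1%, 14.3% and 10.4%, and those 4 made up 28.3% together.

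**Figure D4:**
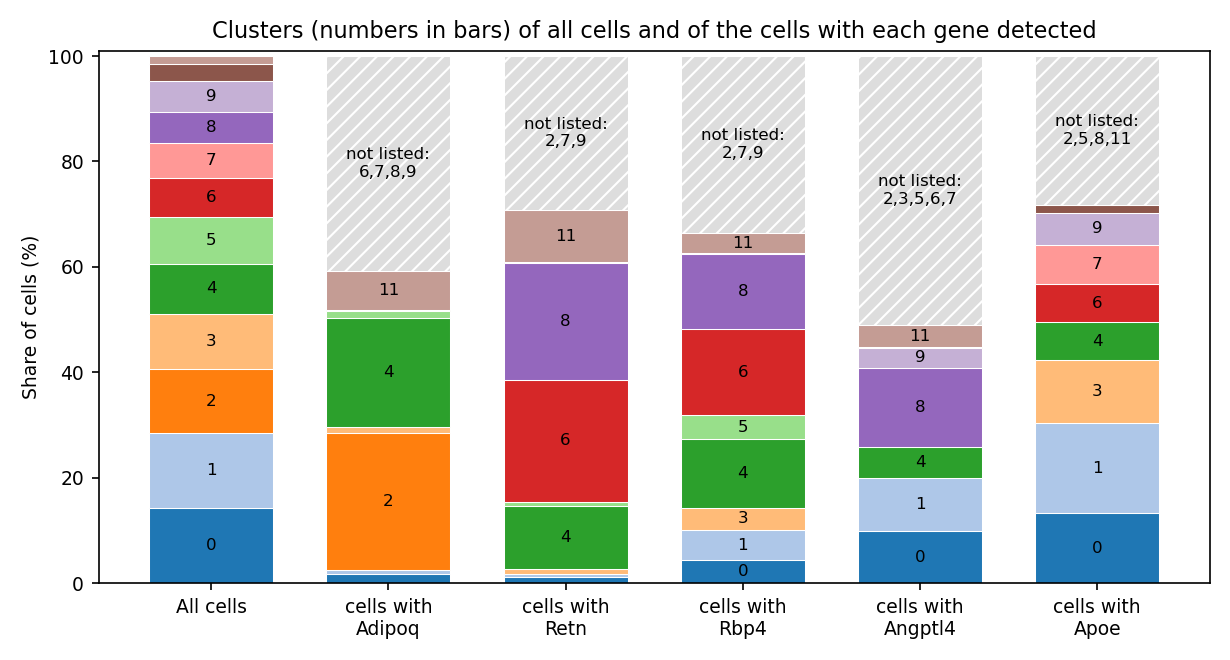
Share of each cluster (numbers in the bars) among all cells and among the cells with each member detected, in percent; hatched parts are the pooled clusters without an entry. Cluster 11 is a thin band wherever it is listed, at most 9.75% for Retn, and the cells with Adipoq lie mainly in clusters 2 (25.9%), 4 (20.7%) and 6 to 9 (40.8%).

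The members were compared in the clusters they shared. Adipoq and Retn had the same direction in 7 of 7 shared clusters (Pearson r of log2 fold changes 0.99), Adipoq and Rbp4 in 7 of 7 (0.98), and Retn and Rbp4 in 9 of 9 (0.99). These directions include entries that did not pass. Of the 7 clusters shared with Adipoq, Retn passed in cluster 11 alone, with an adjusted p of 1 in the other clusters, and Adipoq did not pass in clusters 1 and 3. Angptl4 had the direction of Adipoq in 5 of 5, and that of Retn and of Rbp4 in 6 of 6, with r of 0.99 with Adipoq, 0.86 with Retn and 0.88 with Rbp4. Apoe had the direction of Adipoq in 2 of 5, of Retn in 2 of 6 and of Rbp4 in 2 of 6. The points of such a correlation are clusters of 1 table. They share their cells, depth and the comparison with each other, and the r is a description.

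The other genes listed for the same 8 clusters as Adipoq numbered 37. The most alike were Cdo1, an enzyme of cysteine breakdown (r = 1.00), Cd36, a fatty acid transporter (1.00), and Acsl1, which activates fatty acids (0.99). For Retn, over 9 clusters and among 37 genes, they were Pde3b, the phosphodiesterase by which insulin restrains lipolysis (1.00), Arxes2 (1.00) and Rbp4 (0.99). For Rbp4 they were Car3, a carbonic anhydrase abundant in fat (0.99), Retn (0.99) and Arxes2 (0.99), also over 9 clusters and among 37 genes. For Angptl4, over 7 clusters and among 65 genes, they were Btg1, an inhibitor of proliferation (0.99), Agt, the angiotensin precursor (0.98), and Trappc6a (0.98). For Apoe no gene came close. The highest r among the 14 genes listed for its 8 clusters was 0.44, for Cd9, followed by Timp2 (0.42) and Pmepa1 (0.40).

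Other secreted factors did not share the pattern of the adipokines in cluster 11. Of 37 gene symbols on this list, 22 had an entry in any cluster and 18 in cluster 11. There 3 were higher, 10 were lower and the median log2 fold change was -0.74, against -0.30 over all entries. The share of all symbols was 22.3% for higher and 21.5% for lower. The 3 higher were Hp (haptoglobin, 2.25), Agt (0.70) and Nampt (visfatin, 0.64). Among the lower were Sparc, a matrix glycoprotein (-3.17), Cxcl12, a chemokine (-2.80), and Ccn5 (-1.98). Angptl2, a relative of Angptl4, was lower as well (-0.66).

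**Figure D5:**
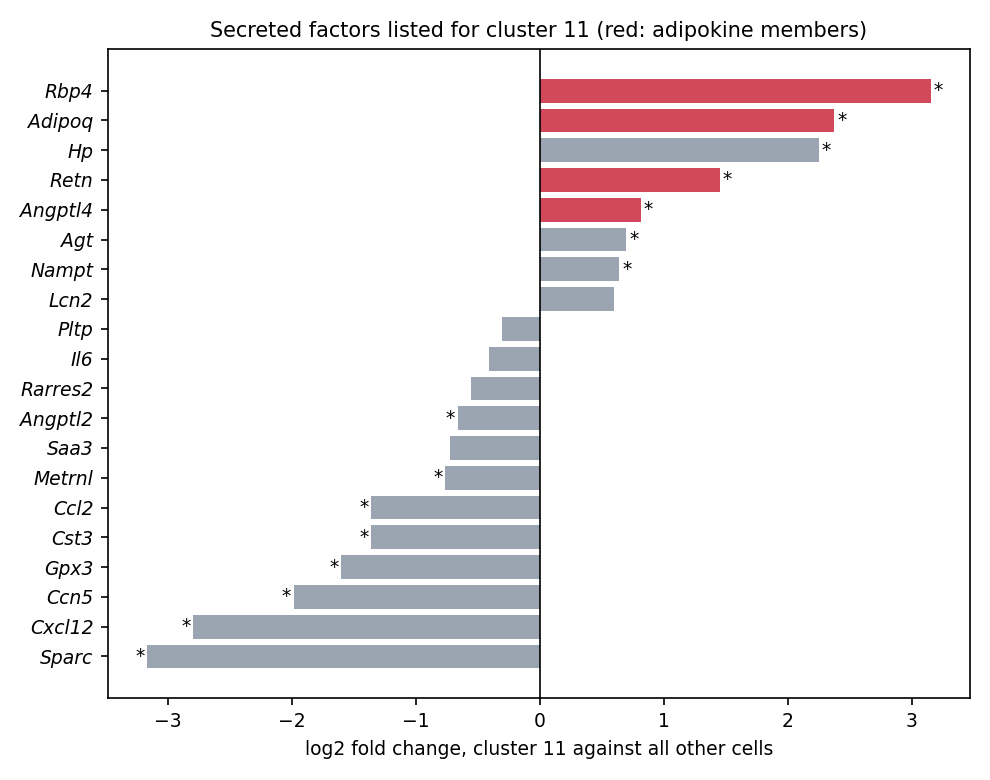
Log2 fold change in cluster 11 against all other cells of secreted factors listed for it, apart from a pair that is not reported here; red bars are the members, grey bars the other factors, and an asterisk marks an adjusted p below 0.05. The 4 members lie between 0.81 and 3.15, and Sparc is lowest at -3.17.

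Secreted factors were distributed differently in cluster 7, where Apoe had its largest listed value. There 7 of the 11 listed were higher and 0 lower, with a median of 1.19 against 0.36 over all entries, and 2.46% of all symbols were higher. They were Hp (2.01), Agt (1.55), Cxcl12 (1.49), Gpx3, a plasma peroxidase (1.45), Cst3, a protease inhibitor (1.41), Rarres2, the precursor of chemerin (1.16), and Ccn5 (0.60). Apoc1, a smaller apolipoprotein encoded beside Apoe, had its single entry here, at 0.68 with an adjusted p of 1. Only Hp and Agt were also higher in cluster 11. Agt was higher in cluster 8 too (1.32), together with Nampt (1.10).

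Of 20 receptors and binding partners through which the adipokines act, 8 were listed. In cluster 11, 3 of these were higher and 3 lower, where 22.3% and 21.5% of all symbols were. Cap1, also on this list, was lower in clusters 4 (-0.35) and 11 (-0.35). Adipor2, a receptor of adiponectin, was higher where Adipoq or Angptl4 was, with log2 fold changes of 1.80 (cluster 11), 0.96 (cluster 4) and 0.88 (cluster 8), and lower in cluster 10 (-0.48). Lpl, the lipase that ANGPTL4 inhibits, was higher in the same 3 clusters, at 1.83, 0.70 and 1.40, with a detection of 92.0% outside cluster 11. Its value was lower in clusters 0 (-1.24), 1 (-0.96), 5 (-1.41), 9 (-1.49) and 10 (-0.87). Lrp1, a receptor that binds APOE, was higher in clusters 2 (0.56) and 8 (0.54) and lower in clusters 5 (-0.53), 10 (-0.25) and 11 (-1.12). Vldlr, another one, was higher in clusters 2 (0.98), 4 (0.30) and 6 (0.33) and lower in clusters 5 (-0.50) and 10 (-0.34). In cluster 4 fewer cells than elsewhere had Adipor2 (26.5% against 43.0%), Lpl (88.7% against 92.5%) and Vldlr (17.5% against 47.5%). The part of the low detection of cluster 4 in these values was not tested. Scarb1, the receptor of high-density lipoprotein, was higher in cluster 11 (0.33). Adipor1, Lepr and Stra6, which bind adiponectin, leptin and RBP4, had no entry.

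Of 10 gene symbols of assembly and secretion, 8 were listed. Erp44, which retains immature adiponectin in the early secretory pathway, was lower in cluster 11 (-0.28) and in cluster 4 (-0.40). The disulfide isomerase genes Pdia3 and Pdia6 were lower in cluster 11 (-0.94 and -0.69) and in cluster 4 (-1.08 and -0.88). In these clusters 21.5% and 37.7% of all symbols were lower. In cluster 11 more cells than elsewhere had Erp44 (65.5% against 55.9%), Pdia3 (93.3% against 88.0%) and Pdia6 (89.7% against 85.7%). Ero1l, an oxidase of the endoplasmic reticulum, stood at 0.97 in cluster 11 without passing. It passed as higher in cluster 4 (0.58), detected in 30.8% of the cells against 72.7%. Sort1, a sorting receptor, was higher in cluster 11 (0.58), detected in 68.3% of the cells against 3.9%. Abca1, which exports cholesterol to apolipoproteins, was higher in clusters 2 (0.94) and 4 (0.52) and lower in clusters 5 (-0.70) and 10 (-0.47).

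Among 13 regulators, 8 were listed and 4 were higher in cluster 11, where 22.3% of all symbols were. These were Cebpa (1.92), Pparg (0.98), Srebf1 (0.91) and Nr1h3 (0.34), all transcription factors of fat cells. The detection of Pparg was 89.9% in cluster 11 and 14.7% outside it. In cluster 8, where Angptl4 had its largest listed value, Pparg stood at 0.37 and Cebpa at 0.27, and neither passed. Cebpd, an early factor of adipogenesis (-1.19), and Hif1a (-1.50) were lower in cluster 11. In cluster 8 Hif1a alone of the regulators was lower (-0.92), as 6.61% of all symbols were. Cluster 4 had 2 regulators lower, Cebpd (-0.64) and Hif1a (-0.89), where 37.7% of all symbols were. It had 2 higher, Cebpa (0.95) and Srebf1 (0.36), where 12.1% of all symbols were. Fewer cells of cluster 4 than elsewhere had Cebpa (21.1% against 27.9%) and Srebf1 (8.8% against 26.8%). All 8 listed of the 12 PPAR target genes were higher in cluster 11, with a median of 2.12, led by Fabp4 (3.56) and Acsl1 (3.46). In cluster 8, 5 of these 8 were listed and 4 were higher, where 4.18% of all symbols were. They were Cd36 (1.64), Plin2 (1.32), Fabp4 (1.25) and Plin1 (0.55), and the median over the 5 was 1.25. In cluster 4, 6 of 8 were higher, with a median of 1.68, and 12.1% of all symbols were higher there. The adipocyte and PPAR lists share Fabp4, Plin1, Cidec and Cd36.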

How the data were processed

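Single-cell RNA was measured in 8 cultures, 2 per genotype and day, grouped by their labels. The authors mapped reads to mm10 with Cell Ranger 6.0.0, per the labels, and aggregated the captures at equal read depth. In Seurat they filtered and log-normalized the cells, removed immune, glial and endothelial cells, clustered the rest and compared each cluster with all other cells by MAST. The deposited log2 fold changes reach down to 0.25, the deposited p-values up to 0.01, and the deposited fractions of cells with a gene detected (printed as percents) have a larger value of at least 10.1%. A gene past no minimum has no entry. The table holds the authors' own comparisons, and no other values per gene were used. Unused columns of values per sample numbered 0.

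Shares of the clusters were solved by least squares from the 10 genes listed for all 12 clusters, because each cluster has to give 1 and the same overall detection. They summed to 99.9%. Pooled values of unlisted clusters follow from the same balance. Relative means used the pseudocount of 1 that Seurat adds by default, and share-weighted sums were 0.997 to 1.00 where 1 is required. The calculation was tested on simulated data. P-values only select entries (adjusted p below 0.05). Members and lists were chosen with earlier results of these data known. Named were the members, the genes of the lists and, for members in at least 5 clusters, the 3 genes with the highest Pearson r. From the fixed lists the text gives those genes that bear on a member. Counts cover whole lists, of which some genes are not reported here by name. Doublets were not looked for. Where a spreadsheet had turned symbols into dates, no named gene was affected. Calculations used Python 3.11.15 with pandas 2.3.3, numpy 2.4.6 and scipy 1.17.1, and plots used matplotlib 3.10.9. Gene positions are from GENCODE (mm10) and promoters from RefSeq (GRCm38.p6). Alternatives were log2 fold change minimums, no p minimum, a detection minimum, other shares, other ways to choose the leading cluster and like genes, and leaving out clusters 4 and 10.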

Additional observations from a re-analysis of the deposited data

How the results depend on the processing

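No paired analysis was possible because samples were pooled in the deposited values, and for the same reason no replicate could be left out. Of 153 alternative values, 121 stayed within the stated limits (counts within 1.5 times, the same leading cluster, shares and means within 5%). The other 32 follow. With a minimum log2 fold change of 1, the number of higher members became 0 in clusters 1, 3 and 6, and that of lower ones 1 in clusters 0 and 10 and 0 in cluster 5. At a minimum of 0.5 no count moved. With no minimum on the adjusted p, higher members became 2 in cluster 6 and 1 in cluster 7, and lower ones 5 in cluster 0, 4 in cluster 1, 3 in clusters 3 and 5, 2 in cluster 9 and 1 in clusters 2, 4 and 6. With a detection minimum of 25%, lower members became 1 in cluster 0 and 0 in cluster 5. These moves follow from the settings, which keep fewer or more entries.

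By detection or its difference, the leading cluster became 1 for Apoe (from 7) and 11 for Angptl4 (from 8), and stayed 11 for the other 3. Without clusters 4 and 10, no leading cluster changed, and the share of detected cells in the leading cluster became 9.33% for Adipoq, 11.1% for Retn, 4.36% for Rbp4, 8.27% for Apoe and 16.0% for Angptl4. Other cluster shares moved none of the 15 values that use them. Of the 3 like genes, 1 remained for Adipoq and 1 for Angptl4 without clusters 4 and 10. By the root mean square difference 0 remained for Adipoq, 1 for Retn and 0 for Angptl4, and the cause was not tested. Depth and cell numbers are unknown, so their effect was not measured.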
